A study of Mus musculus with 4 samples.

Results

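The genes described are 6 members of the CLC family of chloride channels and chloride/proton exchangers (Clcn1, Clcn2, Clcn3, Clcn5, Clcn6 and Clcn7) and Ostm1, the partner subunit of the Clcn7 product. They are 7 of the 55487 gene identifiers in the deposited tables. They were taken by symbol, and the group was chosen by the levels and by the Numb exon 6 to control morpholino ratios within each mouse, on counts, on TPM (a level per transcript length, scaled to the library) and on the count per TPM. The comparison of the morpholinos is therefore given for these genes as a description. Calls between the morpholinos across all genes are counted, and nothing is read from them about these genes. The family member of highest level, Clcn4, is outside the group and is used as a reference. All 7 genes passed the filter on low counts, Clcn1 with 4 to 49 estimated counts per library.

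The study addressed the splicing of Numb, a regulator of Notch signalling, in muscle stem cells (satellite cells), the Pax7-expressing cells that lie along muscle fibres. RNA was taken from satellite cells isolated from skeletal muscle of 2 Tg:Pax7-nGFP mice, whose transgene marks Pax7-expressing cells with a nuclear green fluorescent protein. Minced muscle of mouse 1 and of mouse 2 was exposed during the first digestion either to a control morpholino or to a vivo-morpholino against inclusion of Numb exon 6, which gave 4 libraries, 1 of each kind per mouse. All 4 share the transgene and the digestion, and no untreated muscle is among them. The sources used here give neither age nor sex for the mice. The libraries were built from 5 ng of RNA by SMART-Seq2, which does not record the strand. In bulk RNA of this kind, fewer cells of a type and less RNA per cell cannot be told apart.

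CLC proteins work as dimers in which each subunit has its own ion pathway. Some, including the products of Clcn1 and Clcn2, are chloride channels of the plasma membrane, and the others exchange chloride for protons in the membranes of endosomes and lysosomes, where they act beside the V-type proton pump. In mature muscle the Clcn1 channel carries the resting chloride conductance that steadies the fibre membrane, and its loss causes myotonia congenita. Loss of the Clcn5 exchanger impairs endocytosis in the kidney tubule (Dent disease), and loss of Clcn7 or Ostm1 causes osteopetrosis with lysosomal disease.

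Clcn5 stood apart within the group, and its transcripts are shown first because the values turn on them. The gene lies on the minus strand of GRCm38 chromosome X, from 7153810 to 7319358. GENCODE vM21 gives it 5 transcripts, of which 2 carry the long reading frames. The long transcript has 8390 bases in 12 exons and a reading frame of 746 codons. The upstream transcript has 3052 bases in 15 exons and a reading frame of 816 codons, and it starts 130519 bases upstream of the long one. The pair shares 2548 bases. The long transcript extends 5659 bases past the 3′ end of the upstream one, in a last exon of 6010 bases. The other 3 are a short coding model of 1073 bases, a shorter processed transcript and a retained intron model of 4731 bases. The 250 bases before each start region of Clcn5 in the RefSeq promoter table (GRCm38.p6) follow, 5′ to 3′ on the minus strand, since the 2 long transcripts differ in where they begin. The distal one, which ends before the first annotated base of the gene, is chrX:7319359-7319608 and the proximal one, which ends just before the first base of the long transcript, is chrX:7188715-7188964. Capitals mark E-boxes (CANNTG, which reads the same on both strands), the motif bound by myogenic basic helix-loop-helix factors.
Clcn5 distal promoter: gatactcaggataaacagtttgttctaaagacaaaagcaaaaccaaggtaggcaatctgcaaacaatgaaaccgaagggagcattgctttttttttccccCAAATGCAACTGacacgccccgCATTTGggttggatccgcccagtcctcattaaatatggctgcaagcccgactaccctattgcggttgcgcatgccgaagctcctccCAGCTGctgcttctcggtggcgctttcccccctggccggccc
Clcn5 proximal promoter: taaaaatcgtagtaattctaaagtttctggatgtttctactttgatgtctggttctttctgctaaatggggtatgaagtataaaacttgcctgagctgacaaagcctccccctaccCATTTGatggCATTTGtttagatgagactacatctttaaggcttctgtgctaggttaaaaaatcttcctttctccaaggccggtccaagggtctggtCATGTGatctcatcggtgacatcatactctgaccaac
The distal window held 4 E-boxes, of which 2 lie end to end, and the proximal window held 3. Neither held the letters TGGGAA of the site of RBPJ, the DNA-binding partner of Notch, on either strand. Of 32851 promoter windows of this length, 66.2% held an E-box and 21.6% held TGGGAA on 1 strand or the other. A match of letters is a description and no record of binding.

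**Figure D1:**
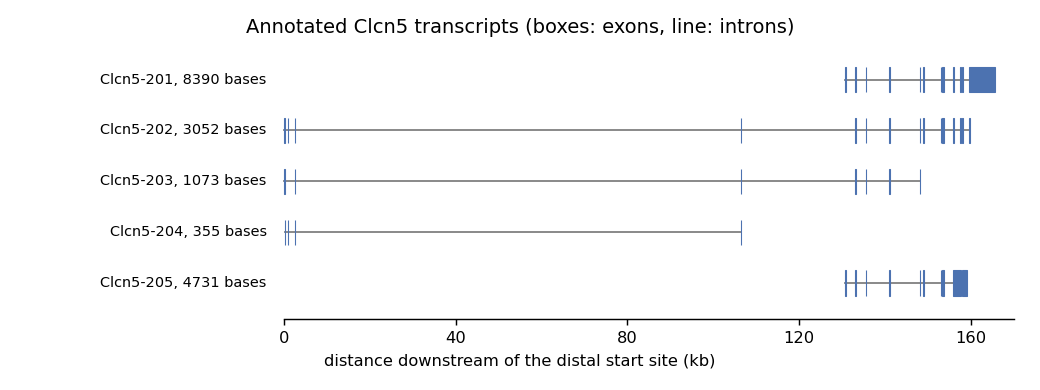
Annotated transcripts of Clcn5 (GENCODE vM21), drawn to scale as distance from the distal start site in kilobases, with exons as boxes and introns as lines. The long transcript (top row, 8390 bases) starts inside the gene and ends in the exon of 6010 bases, and the upstream transcript (3052 bases) starts at the upstream end.

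Clcn5, an electrogenic chloride/proton exchanger of early endosomes, had more counts with the Numb exon 6 morpholino in both mice. Its counts scaled to the library (CPM) were 13.2 with the control and 45.4 with the Numb exon 6 morpholino in mouse 1, and 13.4 and 55.9 in mouse 2. The control libraries lay close together and both Numb exon 6 libraries lay above them, so the groups did not overlap. How many of all tested genes had groups that did not overlap was not counted. Here and for the genes below, a lack of overlap is therefore only a description. The CPM was 3.45-fold higher in mouse 1 and 4.16-fold higher in mouse 2, and the fit across all genes gave a log2 fold change of 1.93 ± 0.16 (SE, n = 2 libraries per group). On the TPM scale, which is per transcript length, the levels were 7.73 and 13.3 in mouse 1 and 8.74 and 16.2 in mouse 2. The groups did not overlap on this scale either, and the ratio was smaller, at 1.72-fold and 1.86-fold.

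The count and the TPM of Clcn5 parted because the length between them differed. Dividing the count by the TPM and scaling by genes with a single annotated transcript gives the mean length of the transcripts that the authors' quantification assigned to the gene. That length was 3161 bases with the control and 6677 bases with the Numb exon 6 morpholino in mouse 1. In mouse 2 it was 2957 and 6772 bases. The control values lay near the 3052 bases of the upstream transcript, and both Numb exon 6 values lay above the length of every annotated Clcn5 transcript other than the long one. The log2 ratio of the lengths was 1.08 in mouse 1 and 1.20 in mouse 2, more than the log2 TPM ratios of 0.78 and 0.89.

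If the assigned molecules were only the 5 annotated transcripts, the mean length bounds their shares. The long transcript was then at most 34.9% and 32.4% of the molecules of Clcn5 in the control libraries of mouse 1 and mouse 2. In the Numb exon 6 libraries it was at least 53.2% and 55.8%. As levels, the long transcript was at most 2.70 and 2.83 TPM in the controls and at least 7.08 and 9.06 TPM with the Numb exon 6 morpholino, so these ranges did not overlap. The other 4 transcripts together lay between 5.03 and 7.73 TPM with the control and between 2.84 and 6.23 TPM with the Numb exon 6 morpholino in mouse 1. In mouse 2 they lay between 5.91 and 8.74 TPM and between 3.27 and 7.18 TPM. Those ranges overlapped in both mice. The bounds do not part the upstream from the downstream start, because the extra length of the long transcript lies almost wholly at its 3′ end, and read coverage along the gene was not analysed here.

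Of the 11914 genes with over 500 counts in every library, 8 (0.0671%) had a mean length higher by more than 0.5 on the log2 scale in both mice, and 6 genes had one lower by as much. Clcn5 was the only one of the 6 members in this set to be among the 8, and it was chosen with its ratio known. The smaller of its 2 ratios was reached by 1 other gene, Slc35e3, whose length was 1105 and 3472 bases in mouse 1 and 1049 and 3489 bases in mouse 2. The remaining 6 were Vps29, a subunit of the retromer of endosomes, Mamdc4, Enah, Ppargc1a, Zfp644 and Afmid, all named here after their values were seen. Over the 11914 genes the median log2 ratio was 0.0001 in either mouse.

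**Figure D2:**
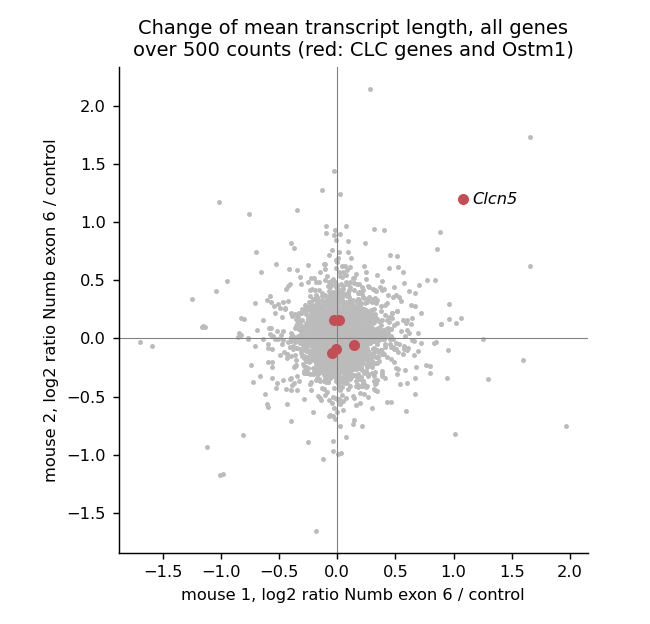
Log2 ratio of the mean transcript length (Numb exon 6 over control morpholino) in mouse 1 against mouse 2 for the 11914 genes with over 500 counts in each library, with the members marked. Clcn5 lies at 1.08 and 1.20, and the other 5 marked members lie within 0.2 of 0 in both mice.

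**Figure D3:**
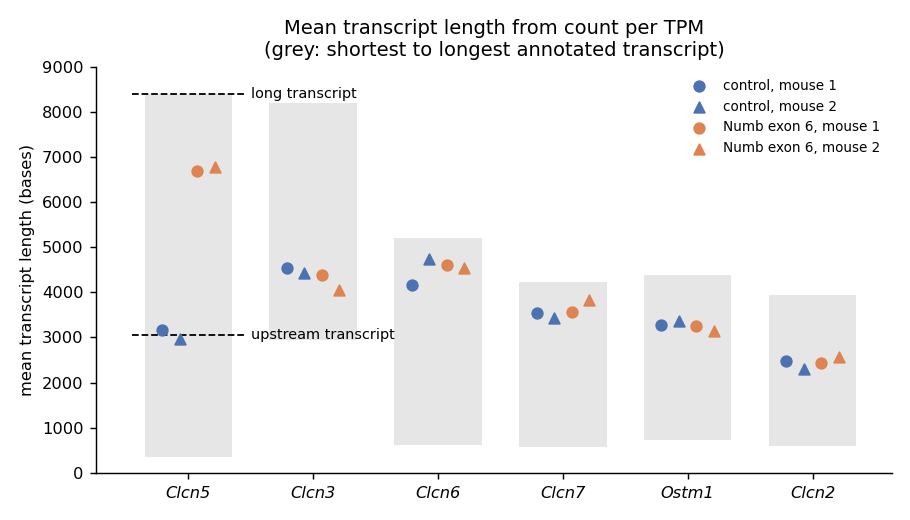
Mean transcript length in bases of 6 members in each of the 4 libraries, 1 point per library, with grey bars from the shortest to the longest annotated transcript and dashed lines at the 2 long-frame Clcn5 transcripts. Clcn5 is at 3161 and 2957 bases in the control libraries and at 6677 and 6772 bases in the Numb exon 6 libraries.

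The other genes lie elsewhere in GRCm38. Clcn7 is on chromosome 17 (25133391 to 25162104) and Ostm1 on chromosome 10 (42583822 to 42702459), both on the plus strand. Clcn3 is on chromosome 8 (60910389 to 60983300), Clcn6 on chromosome 4 (148004259 to 148038821) and Clcn2 on chromosome 16 (20702964 to 20717746), all on the minus strand, and Clcn1 is on the plus strand of chromosome 6 (42286685 to 42315756). Their mean transcript lengths differed less between the morpholinos than that of Clcn5. The mean length of Clcn3 was 4536 and 4384 bases in mouse 1 (control, then Numb exon 6) and 4422 and 4054 bases in mouse 2. For Clcn6 it was 4171, 4611, 4733 and 4547 bases in the same order. Clcn7 had 3537, 3567, 3438 and 3840 bases and Ostm1 had 3279, 3252, 3358 and 3153 bases. The groups overlapped for Clcn6. Clcn3 and Ostm1 were shorter and Clcn7 longer with the Numb exon 6 morpholino in both mice, by under 0.2 on the log2 scale. The log2 ratios of Clcn2, Clcn3, Clcn6, Clcn7 and Ostm1 ran from -0.13 to 0.16. Clcn1, with under 500 counts, was left out of the length measure.

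Clcn7, the chloride/proton exchanger of lysosomes, and Ostm1, the membrane protein that stabilises it, differed little between the morpholinos. Clcn7 stood at 15.0 and 14.2 TPM in mouse 1 (control, then Numb exon 6) and at 13.5 and 13.0 TPM in mouse 2. It was lower by 0.08 and 0.05 on the log2 TPM scale, while on the CPM scale its log2 ratios had opposite signs, -0.14 and 0.07. Ostm1 stood at 7.82 and 8.18 TPM in mouse 1 and at 6.51 and 8.12 TPM in mouse 2. Both Numb exon 6 values of Ostm1 were above both controls on the TPM scale, closely so against the control of mouse 1. The ratios of Ostm1 on the CPM scale were -0.02 and 0.19. The fit gave -0.04 ± 0.15 for Clcn7 and 0.08 ± 0.18 for Ostm1 (log2 fold change ± SE), each smaller than its SE.

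Clcn3, an exchanger of endosomes and of synaptic and secretory vesicles, had 7.45 and 9.33 TPM in mouse 1 and 6.44 and 6.52 TPM in mouse 2. The highest value was the Numb exon 6 library of mouse 1, and the other Numb exon 6 library lay between the controls. Clcn6, an exchanger of late endosomes that is most abundant in neurons, had 5.54 and 5.79 TPM in mouse 1 and 5.62 and 4.10 TPM in mouse 2. The lowest value of Clcn6 was the Numb exon 6 library of mouse 2 and the highest that of mouse 1. Their log2 fold changes of 0.06 ± 0.26 and -0.19 ± 0.23 were within the SE, with opposite signs in the 2 mice on the CPM scale. Clcn6 overlaps the pseudogene Gm13207 on the other strand, which had 0 to 51 counts.

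Clcn2, a broadly expressed chloride channel of the plasma membrane that opens on hyperpolarisation, had 3.81 and 4.47 TPM in mouse 1 and 5.89 and 4.28 TPM in mouse 2. The control libraries were at once the lowest and the highest, and the log2 fold change was -0.13 ± 0.24. Clcn2 overlaps Polr2h and Fam131a, which are read from the opposite strand on chromosome 16, so its reads cannot be fully told apart from theirs. Polr2h had 45.7 to 66.2 TPM and Fam131a had 4.73 to 8.42 TPM.

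Clcn1, the chloride channel of mature muscle fibres, was near the limit of detection. It had 38 and 14 estimated counts in mouse 1 and 49 and 4 in mouse 2. These are estimated counts, and the number of fragments behind them is unknown. Both control libraries were above both Numb exon 6 libraries, and the log2 fold change of -2.12 ± 1.03 rests on these few counts. It was -0.16 by limma on log2(TPM + 1) and -1.01 on log2(TPM + 0.1), which shrink the change of a low gene. With 1 library left out it ran from -2.95, when the mouse 1 library with the Numb exon 6 morpholino was dropped, to -1.61, when that of mouse 2 was. The TPM was 0.0882 and 0.0211 in mouse 1 and 0.185 and 0.00890 in mouse 2. Clcn1 overlaps Fam131b on the other strand of chromosome 6, which had 60, 16, 0 and 39 counts in the same order of libraries.

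**Figure D4:**
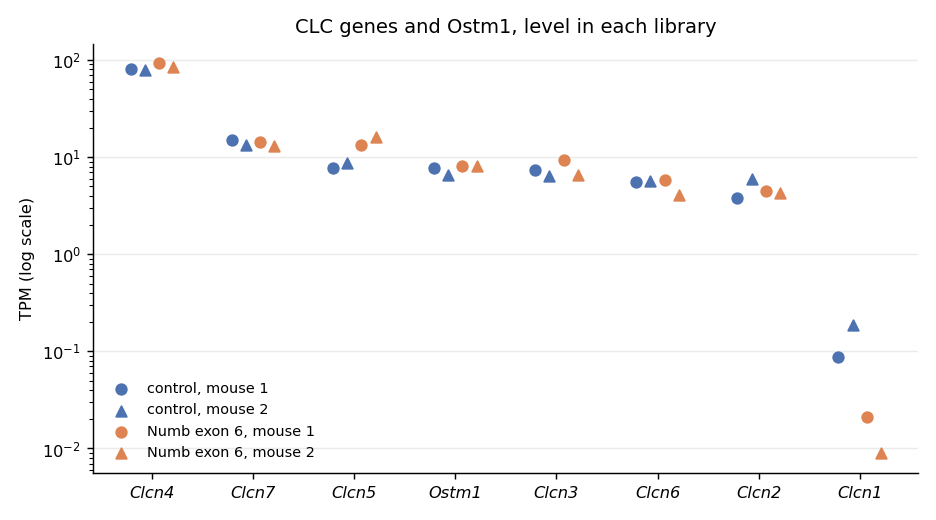
TPM (log axis) of the 7 genes and of Clcn4 in each of the 4 libraries, 1 point per library, by morpholino and mouse. The Numb exon 6 points of Clcn5, at 13.3 and 16.2 TPM, lie well above its control points at 7.73 and 8.74 TPM, and Clcn1 lies under 0.2 TPM throughout.

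**Figure D5:**
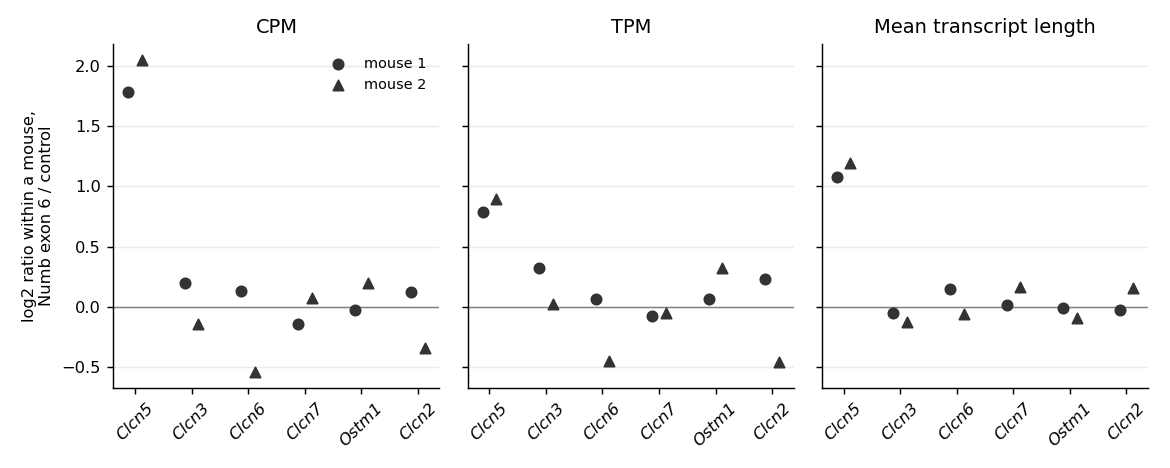
Log2 ratio of the Numb exon 6 to the control morpholino within each mouse for 6 members (Clcn1 left out), on the CPM, TPM and mean transcript length scales, 1 point per mouse. The Clcn5 ratios are above 0.7 on all 3 scales in both mice.

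None of the 7 members passed an adjusted p of 0.05 between the morpholinos by edgeR's quasi-likelihood test, and 0.0% of the 27551 genes tested did. At an unadjusted p under 0.05 by edgeR there were 1145 of these 27551 genes, 1 of them a member (Clcn5). DESeq2 called 65 of 27551 genes, and 159 of 27551 when blocked by mouse. With no filter on low counts, edgeR called 10 of 45277 genes. Each of these fits had 1 member (Clcn5) among its calls. Limma on log2(TPM + 1) called 0. The median log2 fold change was -0.04 over the members and 0.005 over all tested genes. Clcn5 was higher in both mice and Clcn1 lower in both on the CPM scale, against 28.1% of tested genes higher and 27.4% lower in both. Of the 8469 genes with a mean log2 CPM of 3 or more, 4 (0.0472%) were over 2-fold higher in both mice, Clcn5 among them, and 6 were over 2-fold lower. Because the members were chosen on this comparison, nothing is read from these counts.

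Ordered by mean TPM, the genes ran Clcn7 (13.9), Clcn5 (11.5), Ostm1 (7.66), Clcn3 (7.44), Clcn6 (5.26), Clcn2 (4.62) and Clcn1 (0.0759). Clcn7 was the highest in 3 libraries and Clcn5 in the Numb exon 6 library of mouse 2. Among neighbours in that order, Clcn3 was above Clcn6 in 4 of 4 libraries, by 0.50 ± 0.23 (log2 TPM, SD, n = 4), and Clcn2 was above Clcn1 in 4 of 4. Clcn7 over Clcn5, Clcn5 over Ostm1 and Ostm1 over Clcn3 held in 3 libraries each, and Clcn6 over Clcn2 in 2, so these neighbours did not keep their order. All lay far under Clcn4, an endosomal exchanger of the same branch as Clcn3 and Clcn5, which had 80.3 and 92.2 TPM in mouse 1 and 78.2 and 85.0 TPM in mouse 2. Clcn4 made up 65.8% to 67.0% of the TPM of the CLC genes Clcn1 to Clcn7. The share of Clcn5 was 6.45% and 9.55% in mouse 1 and 7.37% and 12.6% in mouse 2.

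The mice can also be compared by a test. The choice of the genes named no contrast of the mice, but it used the levels in all 4 libraries, so the test is not independent of it. The test sets 1 animal against 1, and its p measures the spread between the libraries of an animal. None of the 7 members was called by edgeR's quasi-likelihood test, against 0.0254% of the 27551 genes (7). At an unadjusted p under 0.05 by edgeR there were 2290 of the 27551 genes, 1 of them a member, Clcn3 (0.0229). It is described for that reason only. Its CPM was 18.2 and 20.9 in mouse 1 and 14.8 and 13.4 in mouse 2. The log2 difference, mouse 2 minus mouse 1, was -0.47 ± 0.15 (SE) with an adjusted p of 0.542 by edgeR, which lay between 0.151 and 0.884 over the alternatives. For Clcn5 the difference was 0.24 ± 0.81 (adjusted p = 0.984, edgeR), and with the morpholino as a term it was 0.17 ± 0.12 (adjusted p = 0.734). Clcn2 differed by 0.25 ± 0.21, Clcn6 by -0.16 ± 0.22, Clcn7 by -0.13 ± 0.13 and Ostm1 by -0.17 ± 0.15, with adjusted p from 0.828 to 0.923 by edgeR. DESeq2 called 495 of the 27551 genes between the mice and 0 of the 7 members.

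The genes whose CPM over the 4 libraries lay nearest to that of Clcn5, by the distance between log2 CPM values centred on their mean, were Fam107b (0.667), Tnpo2 (0.855), Adnp (0.953), Sptssa (0.981) and Zscan21 (0.982). They come from the 8469 genes with a mean log2 CPM of 3 or more, over 4 libraries, and the next gene followed at 0.987 (Bzw1). Fam107b had 4.46 and 25.5 CPM in mouse 1 and 4.12 and 20.3 CPM in mouse 2. On the TPM scale it had 2.91 and 15.9 in mouse 1 and 3.35 and 12.7 in mouse 2, with log2 length ratios of 0.14 and 0.42. Sptssa had 14.6 and 28.2 TPM in mouse 1 and 11.2 and 26.5 TPM in mouse 2, with log2 length ratios of -0.01 and 0.02. Tnpo2 and Adnp were longer with the Numb exon 6 morpholino in both mice, with log2 length ratios of 0.50 and 0.37 for Tnpo2 and of 0.32 and 0.94 for Adnp. Zscan21 had -0.06 and 0.33. All 5 genes had log2 length ratios below those of Clcn5 in both mice.

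The 5 genes of highest counts within 500000 bases of Clcn5 on chromosome X had smaller ratios. Gpkow had a log2 fold change of 0.35 ± 0.12, Tfe3, a transcription factor of lysosomal genes, 0.06 ± 0.17, Wdr45 0.01 ± 0.15, Gripap1 0.02 ± 0.13 and Plp2 -0.05 ± 0.13 (edgeR, ± SE). These 5 were chosen after their values were seen. The miRNA genes Mir188, Mir362, Mir500, Mir501 and Mir532 lie inside Clcn5 on its strand. They had 0 to 4 counts in any library, 2 of the 5 had none in all 4 libraries, and none passed the filter. Mature miRNAs are too short for these libraries, so the counts are no measure of them.

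The list of other CLC genes and partner subunits had 5 tested genes, Clcn4, Bsnd, Hepacam, Tmem9 and Tmem9b. Of these, 4 were higher in both animals and 0 lower (median log2 fold change 0.22), and none passed the test. Hepacam, among the 4, had 6 to 43 counts. Over all tested genes, 28.1% were higher in both mice and 27.4% lower, which is the background for the lists below too. Clcn4 itself had 0.14 ± 0.12. Tmem9, a partner subunit of endosomal CLC exchangers, had 4.77 and 10.9 TPM in mouse 1 and 10.0 and 11.5 TPM in mouse 2, with a log2 fold change of 0.61 ± 0.34.

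The V-ATPase acidifies the compartments in which the exchangers work. Of its 24 tested subunits, 9 had a higher CPM in both mice and 6 a lower one. The median log2 fold change was 0.01, and 0 passed the test. Atp6v0c, the proteolipid of the membrane ring, had 492 and 267 TPM in mouse 1 and 533 and 283 TPM in mouse 2. Both Numb exon 6 libraries were below both controls, with a log2 fold change of -0.95 ± 0.11, which did not pass the adjusted threshold. Atp6v0a2 had 0.60 ± 0.23. Among 16 other endosomal and lysosomal channels and exchangers, 8 were higher and 0 lower in both (median 0.14), Tmem63a with 19.6 and 33.1 TPM in mouse 1 and 26.5 and 33.6 TPM in mouse 2. The 8 cation chloride cotransporters tested had 6 higher and 1 lower (median 0.19), and the most abundant, Slc12a4, had -0.06 ± 0.11.

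Other chloride channel families had 27 tested genes, 9 higher and 7 lower in both animals (median 0.09). Clic4 and Clic1, at 1142 to 1540 and 148 to 176 TPM, were the most abundant, and their ratios had opposite signs in the 2 mice. Lists fitting the muscle role of Clcn1 were mixed. Of 22 muscle fibre excitability genes, 6 were higher and 8 lower in both mice (median 0.05), and the most abundant, Chrnb1, a subunit of the acetylcholine receptor, had 0.08 ± 0.11. Of 15 factors for Clcn1 splicing and nonsense-mediated decay, 6 were higher and 3 lower (median 0.02), with Rbfox2 at -0.39 ± 0.45 and Upf1 at -0.40 ± 0.14. No gene of these lists passed the edgeR test between the morpholinos or between the mice.

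The label of the cells was checked against markers, and the markers of other cells are given beside the Clcn5 and Clcn1 values. The 12 satellite cell markers summed to 10800 and 12580 TPM in mouse 1 and 11670 and 12720 TPM in mouse 2, with Pax7 at 37.0 and 50.9 TPM in mouse 1 and 51.4 and 59.7 TPM in mouse 2. The 15 mature myofibre markers summed to 162 and 180 TPM in mouse 1 and 171 and 187 TPM in mouse 2, of which Actn3 alone had 114 to 136 TPM. The 8 glial markers summed to 71.9 and 126 TPM in mouse 1 and 85.3 and 150 TPM in mouse 2, mostly Pmp22, which had 45.1 and 78.9 TPM in mouse 1 and 53.5 and 119 TPM in mouse 2. The 14 leukocyte markers summed to 33.9 and 44.5 TPM in mouse 1 and 38.3 and 134 TPM in mouse 2, with S100a8 at 46.6 TPM and S100a9 at 36.0 TPM in that last library. The 9 fibro-adipogenic progenitor markers summed to 1791 and 1915 TPM in mouse 1 and 1689 and 1792 TPM in mouse 2. Most of this sum was Gsn and Col3a1. Gsn had 811 and 832 TPM in mouse 1 and 817 and 779 TPM in mouse 2. Col3a1 had 371 and 390 TPM in mouse 1 and 267 and 336 TPM in mouse 2. The 9 endothelial markers summed to 120 and 181 TPM and 118 and 117 TPM, and the 8 osteoclast markers to 117 and 99.4 TPM and 116 and 110 TPM, in the same order. Most of the osteoclast sum was Calcr, at 37.4 to 67.5 TPM, and Nfatc1, at 41.4 to 70.2 TPM. Calcr is also among the satellite cell markers, so this sum is no measure of osteoclast RNA. No marker was at 0 in all 4 libraries. The satellite cell, myofibre, glial, leukocyte and fibro-adipogenic sums were thus higher with the Numb exon 6 morpholino in both mice, as Clcn5 was. In mouse 2 the higher myofibre sum rested on Actn3 and Atp2a1. The other 13 myofibre markers summed to 28.86 and 33.84 TPM in mouse 1 and to 33.97 and 29.79 TPM in mouse 2. Of the 15 myofibre markers, 4 had a higher CPM in both mice and 4 a lower one. The part of these cell sums in the Clcn5 values was not tested.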

How the data were processed

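RNA-seq was deposited for 4 libraries. Per the submitters' processing notes, the build was GRCm38 and the tools were HISAT2 2.1.0 and StringTie 1.3.6, and the annotation release is not given there. The authors deposited estimated counts as whole numbers, 230431665 to 355411827 per library. Counts of 4, 8 and 12 were each more frequent than the counts beside them. The counts per fragment are not known, and the totals are no fragment depth. The authors' deposited TPM values are per length and library.

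Counts were tested with edgeR 4.0.16 in R 4.3.3 (TMM, default filter by group, quasi-likelihood, robust, no block, Benjamini-Hochberg at 0.05 over 27551 genes). The SE of an edgeR log2 fold change was derived from the test, as its absolute value divided by the square root of the quasi-likelihood F. Log2 ratios within a mouse are of CPM with a prior count of 2. Mean length is count per TPM, scaled by genes with 1 annotated transcript in GENCODE vM21, which holds 55094 of the identifiers. Alternatives used DESeq2 1.42.0, limma 3.58.1 on log2 TPM, other filters and each library left out. Fits were tested on simulated data. The named genes are the members, the 2 most abundant genes of each list and its 2 most changed among genes whose mean log2 CPM reached 3, and the 5 nearest to Clcn5, where given. Other genes (Pax7, S100a9, Bsnd, Hepacam and those marked as chosen on sight of their values) fall outside that rule. Some genes of the lists are not reported here by name. The members and lists were chosen with earlier results of these data known. The lists were CLC partners, other chloride channels, cotransporters, V-ATPase, endosomal channels, muscle excitability, Clcn1 splicing factors and 7 sets of cell markers.

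Per the labels, both libraries of a number are from 1 animal, and the samples are paired by mouse. After removal of group means, libraries of a mouse correlated at 0.401 across the 8469 genes whose mean log2 CPM was at least 3, and at 0.0561 across all tested genes. With 1 library per mouse and morpholino, p-values measure the spread between these libraries.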

Additional observations from a re-analysis of the deposited data

How the results depend on the processing

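With the mouse as a replicate block, the pairing left 0 genes called between the morpholinos by edgeR and gave Clcn5 a log2 fold change of 1.92 ± 0.13. Between the morpholinos, edgeR called 10 genes with no filter (5 in each direction) and 1 at a CPM of at least 5. DESeq2 called 65, and 159 with the block. Leaving out a library gave 0 to 1. Between the mice, edgeR called 7 genes, 1 with the morpholino as a term, 119 with no filter and 43 at a CPM of at least 5. DESeq2 called 495 and limma on log2(TPM + 1) called 4. Leaving out a library gave 1 to 28, the most without the Numb exon 6 library of mouse 2. The Clcn5 log2 fold change was 0.77 by limma on log2(TPM + 1), with or without the block, and 0.83 on log2(TPM + 0.1), and those scales divide by the length that differed. Leaving out a library gave it 1.77 to 2.07, and its log2 length change of 1.14 became 1.08 to 1.20 without a mouse. The Clcn1 log2 fold change became -0.16 by limma on log2(TPM + 1), with or without the block. The mouse difference of Clcn1 turned to -0.32 with the morpholino as a term, from 0.22. Leaving out a library gave mouse differences of -2.14 to 1.06 for Clcn1, -1.12 to 1.39 for Clcn5 and -0.47 to 0.087 for Clcn6. None of these was called. The cause of the other changes was not tested. Clcn1 gave no value at a CPM of at least 5 or with counts divided by 4. The last 2 fits, counts divided by 4 and limma with the block, were chosen after seeing the data. Clcn1 is limited by its 4 to 49 estimated counts, so a change in it was not resolved at this depth.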

Other observations

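Lrrc8a, the required subunit of the volume-regulated anion channel, had 4.37 TPM in the control library of mouse 1 and 65.5 TPM in that of mouse 2. The Numb exon 6 libraries had 79.8 and 36.9 TPM. Its log2 ratio was 4.11 in mouse 1 and -0.86 in mouse 2, and 1 control library stood apart from the other 3 (log2 fold change 0.71 ± 1.13).

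Ano5, a muscle member of the anoctamin family, had 0.448 and 0.903 TPM in mouse 1 and 0.427 and 1.32 TPM in mouse 2, with a log2 fold change of 1.78 ± 0.35 by edgeR. Cftr, the cystic fibrosis chloride channel, had 0.324 and 0.0514 TPM in mouse 1 and 0.165 and 0.0876 TPM in mouse 2. Scn4a, the sodium channel of muscle fibres, had a log2 fold change of -1.34 ± 0.42. These genes were chosen after their values were seen, and none passed the adjusted threshold.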
